A study of Homo sapiens with 42 samples.

Results

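The E2F and retinoblastoma family genes were followed in human melanoma cells exposed to either of 2 Aurora kinase inhibitors. The group was set by name, as the 10 genes E2F1, E2F2, E2F3, E2F4, E2F5, E2F8, TFDP1, RB1, RBL1 and RBL2, and every array probe annotated to them was read, 12 in all. Of the 10 genes, 8 were measured above background with 9 probes, out of 8921 genes measured in the whole series. E2F1 and E2F8 were not measured, and their signals are given further on without a test.

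The cells were 1205Lu, an established line from a metastatic human melanoma. AZD1152, which acts mainly on Aurora kinase B, was given at 0.5 µM, and SNS-314, which acts on all Aurora kinases, at 0.05 µM. The arrays held 4 controls at 0 h, 3 samples of each inhibitor at 6 h and 4 of each at 12, 18, 24 and 48 h, 42 in all, 1 array per sample. All groups are the same cell line, a vehicle for the controls is not given in the sources used here, and no later time without inhibitor was analysed here. Each comparison with 0 h therefore holds the time in culture as well as the inhibitor, and all 10 such comparisons share the same 4 controls. Whether replicates came from separate cultures is not stated, so the p-values reflect only the scatter among these arrays, and that scatter may be technical.

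The E2F proteins are transcription factors that bind DNA together with a DP partner. In G1 the retinoblastoma protein and its relatives p107 and p130, called pocket proteins, hold E2F in check, and cyclin-dependent kinases release it by phosphorylating them, after which genes for DNA replication are transcribed. E2F1, E2F2 and E2F3 are the activators, E2F4 and E2F5 act mainly as repressors with p107 and p130, and E2F8 is an atypical member that represses without a DP partner. E2F1, E2F2 and the p107 gene RBL1 are themselves known E2F targets. In melanoma the pathway is commonly disturbed upstream, by loss of the kinase inhibitor p16.

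Of the 10 genes, 8 matched the RefSeq promoter table of GRCh38.p14, with 10 windows. The 250 bases before each start were searched on both strands for 4 spellings of the E2F site, TTTCCCGC, TTTCGCGC, TTTGCCGC and TTTGGCGC, and capitals mark the matches, which read as the reverse complement where the match lies on the other strand. Each of the 5 windows with a match is shown, together with those of E2F4 and RBL2 as windows without one. E2F4 was itself called lower at 48 h with SNS-314, and a link of matches to the changes was not tested.
E2F1 (chr20:33686386-33686635, minus strand): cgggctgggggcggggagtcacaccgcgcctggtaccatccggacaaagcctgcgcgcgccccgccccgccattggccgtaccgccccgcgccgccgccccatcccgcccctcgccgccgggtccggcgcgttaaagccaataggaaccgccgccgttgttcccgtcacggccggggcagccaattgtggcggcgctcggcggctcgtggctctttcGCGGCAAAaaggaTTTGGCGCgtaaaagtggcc
E2F2 (chr1:23531234-23531483, minus strand): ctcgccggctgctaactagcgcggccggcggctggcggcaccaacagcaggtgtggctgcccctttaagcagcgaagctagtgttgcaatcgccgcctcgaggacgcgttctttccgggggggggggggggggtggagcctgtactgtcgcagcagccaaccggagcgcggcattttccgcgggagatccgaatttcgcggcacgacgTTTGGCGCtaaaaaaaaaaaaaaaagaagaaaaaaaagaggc
E2F3 (chr6:20401629-20401878, plus strand): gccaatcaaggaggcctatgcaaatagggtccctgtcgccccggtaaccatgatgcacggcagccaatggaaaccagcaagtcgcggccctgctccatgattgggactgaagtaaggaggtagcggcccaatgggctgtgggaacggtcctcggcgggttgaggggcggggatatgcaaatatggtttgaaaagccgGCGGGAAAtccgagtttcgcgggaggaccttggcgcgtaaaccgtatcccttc
TFDP1 (chr13:113584503-113584752, plus strand): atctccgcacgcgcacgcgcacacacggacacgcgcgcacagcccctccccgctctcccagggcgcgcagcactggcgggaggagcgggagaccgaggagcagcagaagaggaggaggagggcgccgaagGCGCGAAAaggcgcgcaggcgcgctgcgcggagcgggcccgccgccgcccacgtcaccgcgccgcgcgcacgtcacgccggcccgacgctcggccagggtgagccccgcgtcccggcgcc
RBL1 (chr20:37095998-37096247, minus strand): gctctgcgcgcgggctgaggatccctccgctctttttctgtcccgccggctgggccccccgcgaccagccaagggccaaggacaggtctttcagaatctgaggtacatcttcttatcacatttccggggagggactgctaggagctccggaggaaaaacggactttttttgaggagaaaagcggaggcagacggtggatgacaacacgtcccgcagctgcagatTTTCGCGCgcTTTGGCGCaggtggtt
E2F4 (chr16:67191905-67192154, plus strand): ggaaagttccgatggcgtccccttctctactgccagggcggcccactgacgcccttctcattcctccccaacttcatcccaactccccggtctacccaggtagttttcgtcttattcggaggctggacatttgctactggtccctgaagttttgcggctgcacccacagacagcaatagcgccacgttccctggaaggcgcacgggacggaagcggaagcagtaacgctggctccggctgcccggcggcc
RBL2 (chr16:53434221-53434470, plus strand): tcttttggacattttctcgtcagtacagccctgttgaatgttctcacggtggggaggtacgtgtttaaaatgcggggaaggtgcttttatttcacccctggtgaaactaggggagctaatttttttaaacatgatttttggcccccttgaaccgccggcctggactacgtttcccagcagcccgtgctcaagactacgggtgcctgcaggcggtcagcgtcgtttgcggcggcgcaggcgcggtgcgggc

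E2F1 and RBL1 hold 2 matches each, and E2F2, E2F3 and TFDP1 hold 1 each. The matches of E2F1, E2F2, E2F3 and RBL1 begin 53 bases before the start or nearer, and the TFDP1 match begins 120 bases before it. A match was found in 979 of 35116 windows of all promoters, or 2.79%, and in 14 of 41 windows of the E2F target genes listed further on, or 34.1%. In the other lists given there it was in 0 of 6 windows of other E2F and DP genes and 0 of 16 of G1 regulators. For the MuvB and DREAM genes it was in 1 of 17 (5.88%), and for the co-repressors in 1 of 15 (6.67%). The start used for TFDP1 lies 65 bases from the first annotated base of the gene, and the table's window for RB1 lies 172699 bases inside the gene, so the main RB1 promoter was not searched. The letters CCAAT, a box common in cell cycle promoters, were found in the windows of E2F1, E2F3 and 1 window of RBL2, against 32.0% of all windows. A match describes the letters and does not show that a factor binds there.

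Median signals lay between 210.0 and 338.6 per array, with 20.5% to 30.4% of probes above background. The precision is limited by the number of arrays. Levels below are log2 intensities after normalization, and changes are log2 differences ± SE from limma, tested over 8921 genes. Adjusted p-values are Benjamini-Hochberg values, computed separately for each comparison. A gene was called at an adjusted p under 0.05. The mean correlation of an array with the others of its group ran from 0.971 to 0.992 across the 13489 probes that passed the filter. Replicate 1 of AZD1152 at 18 h, replicate 4 of SNS-314 at 12 h and replicate 4 of SNS-314 at 24 h stood apart most in the 3 least uniform groups, and results that rest on them are given with and without them. Among markers of the pigment cell lineage SOX10 and S100A1 were above background on 42 of 42 arrays, MITF on 1, and PMEL, MLANA, TYR, TYRP1 and S100B on 0. Of 5 leukocyte and 5 endothelial markers on the array none was measured, 1 of 6 keratinocyte markers was (KRT10), and of 7 fibroblast markers PDGFRA and PDGFRB were, with COL1A1, COL1A2, COL3A1, LUM and DCN on 0 arrays.

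By 48 h the measured family genes had not all changed in the same direction. With AZD1152 and SNS-314 E2F2 fell 3.47-fold and 3.84-fold, and TFDP1 fell 2.08-fold and 1.90-fold on the brighter of its 2 probes. On the other TFDP1 probe the log2 changes were smaller, at -0.65 and -0.67. RBL1 fell 1.57-fold and 1.61-fold against the background limit, from a control mean that takes in a control not above background. E2F3 fell less, by 0.31 and 0.29 on the log2 scale, and RBL2 rose by 0.32 and 0.36. The RBL2 call was lost in 6 of 8 fits without 1 array with AZD1152 and in 2 of 8 with SNS-314. E2F5, which had risen at 18 h, was no longer called, and RB1 was not called at any time. In these bulk samples fewer cells that express a gene and less RNA of it per cell cannot be told apart. Of the 8 measured genes, 4 were lower and 1 higher with AZD1152, where 21.7% of all measured genes were called lower and 20.8% higher. With SNS-314, 5 were lower and 1 higher, against 23% and 22.3% of all genes. The median change of the 8 was -0.33 and -0.27, beside -0.00 and -0.01 over all genes. The shares of lower genes were thus above the background and those of higher genes below it, and with 8 genes of mixed direction neither was tested.

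**Figure D1:**
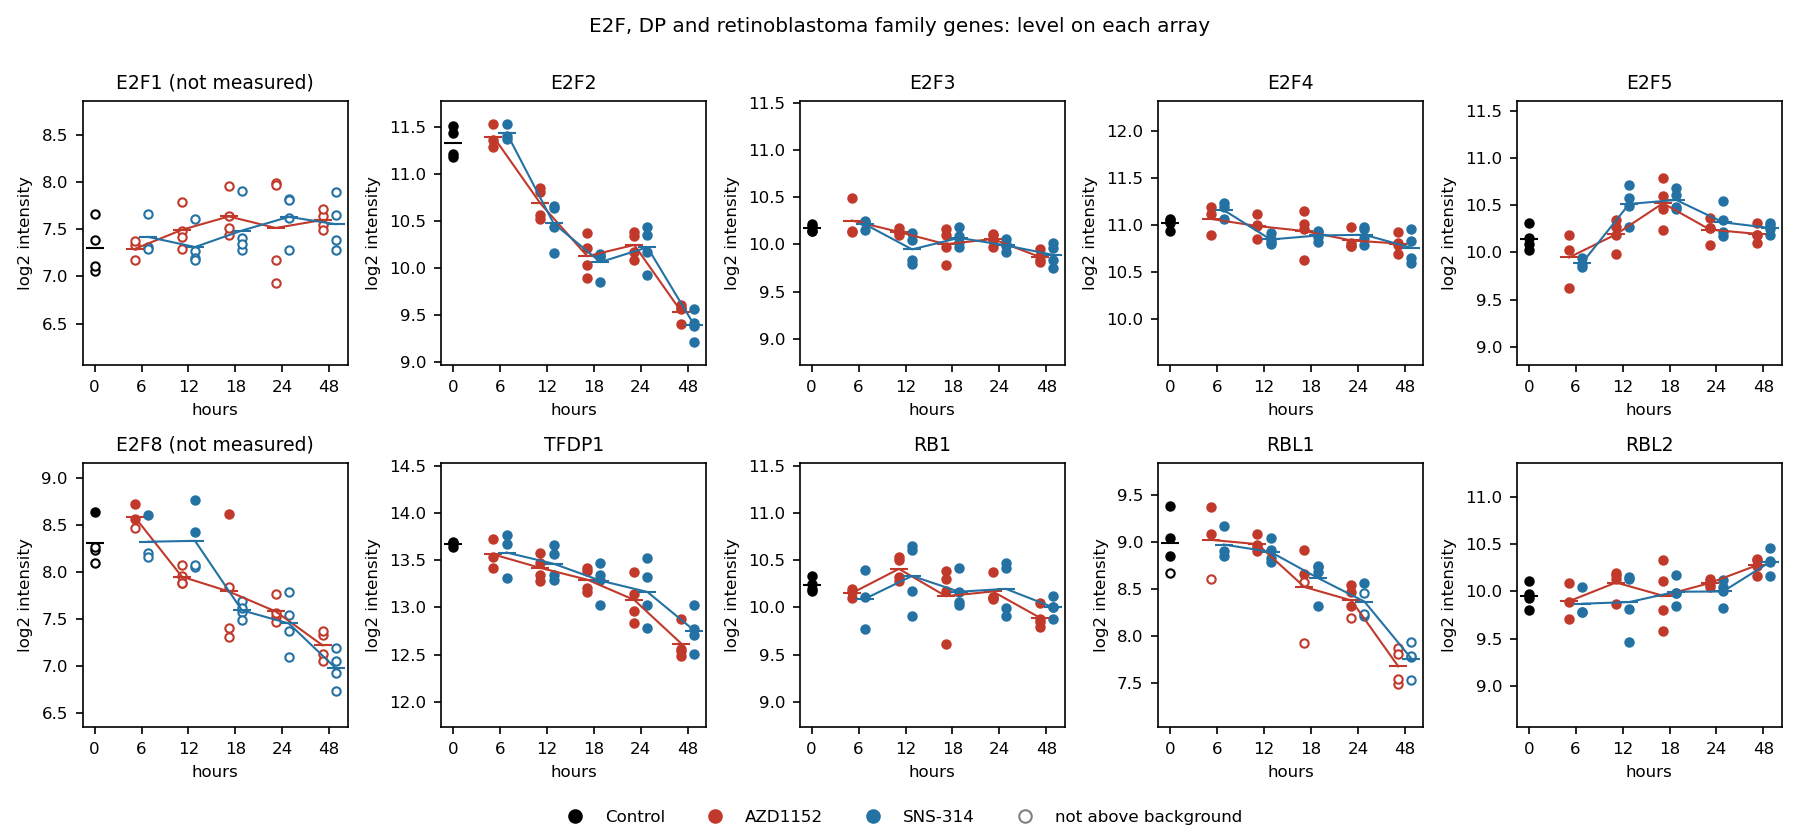
Log2 intensity (vertical axis) of the 10 family genes on each of 42 arrays by hour (horizontal axis, evenly spaced), with controls in black, AZD1152 in red and SNS-314 in blue. Lines join group means, open circles are arrays on which the probe was not above background, every panel spans the same 2.8 log2 units, and E2F2, TFDP1 and RBL1 slope down while RBL2 ends above its 0 h arrays.

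At earlier times fewer of the 8 genes moved. At 6 h limma called 0 with either inhibitor, with 0 at an unadjusted p under 0.05 with AZD1152 and 1 with SNS-314, E2F5 (-0.25 ± 0.12, unadjusted p = 0.0411). At that time 1.49% of all genes were lower and 1.2% higher with AZD1152, and 1.78% lower and 1.93% higher with SNS-314. At 12 h E2F2 was lower with both, against 2.81% of all genes with AZD1152 and 3.63% with SNS-314. E2F5 was higher with SNS-314, against 1.95% of all genes, and 0 members were higher with AZD1152, against 1.45%. At 18 h the calls with AZD1152 were 3 lower (9.72% of all genes) and 1 higher (8.03%), and those with SNS-314 were 1 lower (5.63%) and 1 higher (4.09%). At 24 h E2F2, TFDP1 and RBL1 were lower with each inhibitor, where 9.19% and 10.7% of all genes were lower, and 0 were higher, where 7.57% and 9.1% of all genes were.

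E2F2, an activator E2F, was called from 12 h on with both inhibitors. The controls read 11.18, 11.21, 11.43 and 11.51 (mean 11.33 ± 0.16 SD, n = 4). At 6 h the arrays read 11.36, 11.29 and 11.53 under AZD1152 and 11.40, 11.53 and 11.37 under SNS-314, which overlapped the controls. At 12 h they read 10.52, 10.81, 10.85 and 10.56 under AZD1152 and 10.64, 10.66, 10.44 and 10.16 under SNS-314. All 8 arrays at 12 h lay below the lowest control. The change was -0.65 ± 0.12 with AZD1152 (1.57-fold lower, adjusted p = 2.4e-04) and -0.86 ± 0.12 with SNS-314 (1.81-fold lower, adjusted p = 1.3e-06).

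The mean of E2F2 was lower at 18 h than at 12 h with both inhibitors, and lower again at 48 h than at 24 h. The step from 12 to 18 h was called with AZD1152 (adjusted p = 0.00184) and not with SNS-314 (0.0587). At 18 h AZD1152 gave 9.89, 10.03, 10.21 and 10.37, a change of -1.21 ± 0.12 against 0 h, and SNS-314 gave 10.13, 10.15, 9.85 and 10.12, a change of -1.27 ± 0.12. The levels at 24 h were 10.09, 10.17, 10.38 and 10.34 and 10.17, 9.93, 10.35 and 10.43, so the groups at 18 and 24 h overlapped. E2F2 stood at -1.09 ± 0.12 and -1.11 ± 0.12 at 24 h. At 48 h the arrays read 9.41, 9.61, 9.56 and 9.57 under AZD1152 and 9.21, 9.38, 9.56 and 9.42 under SNS-314, below every array of every earlier group. E2F2 was then 3.47-fold lower with AZD1152 (-1.80 ± 0.12, adjusted p = 4.7e-16) and 3.84-fold lower with SNS-314 (-1.94 ± 0.12, adjusted p = 2.5e-17). None of these E2F2 calls was lost when any 1 array was left out. The digits that end each array's name in the header were read as its chip, and arrays on the other chips had no control beside them. Within each of the 2 chips that held controls, with 1 treated array against 2 controls, the 48 h difference was -1.86 and -1.79 under AZD1152 and -2.09 and -1.99 under SNS-314.

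E2F3, the activator needed for entry into S phase in many cells, fell little and was called only at 48 h. The controls read 10.14, 10.14, 10.22 and 10.20. At 48 h the levels were 9.81, 9.95, 9.88 and 9.83 under AZD1152 and 9.96, 9.83, 10.02 and 9.75 under SNS-314. Both groups lay wholly below the controls, by 0.31 ± 0.09 (adjusted p = 0.00407) and 0.29 ± 0.09 (adjusted p = 0.00684). E2F3 did not pass the test at an earlier time, with changes between -0.23 and 0.08.

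The third activator, E2F1, was not above background on any of the 42 arrays, with signals of 170 to 336. Its mean log2 level was 7.31 ± 0.28 in the controls, 7.60 ± 0.10 with AZD1152 at 48 h and 7.55 ± 0.28 with SNS-314 at 48 h. These levels are upper bounds and were not tested, so the arrays give no change for this gene.

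Of the repressor E2Fs, E2F4 is the most abundant E2F of resting cells and enters the nucleus with p107 or p130. E2F4 read 10.94, 11.05, 11.06 and 11.02 in the controls. At 48 h it read 10.93, 10.69, 10.81 and 10.79 under AZD1152 and 10.96, 10.65, 10.60 and 10.83 under SNS-314. Both are small differences, at -0.21 ± 0.09 (adjusted p = 0.0615, not called, though each array lay below the lowest control) and -0.26 ± 0.09 (adjusted p = 0.0211, with overlapping arrays). The call of E2F4 was lost without control replicate 3 (adjusted p = 0.051) and without SNS-314 replicate 2 (0.071) or replicate 3 (0.0967). It was also lost with chip as a fixed block, at -0.20 and adjusted p = 0.0519, and with all probes kept, at adjusted p = 0.0599.

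E2F5, the other repressor, was the only measured member that passed the test in the upward direction before 48 h. The controls read 10.31, 10.09, 10.03 and 10.15, and the 6 h arrays 9.62, 10.19 and 10.03 under AZD1152 and 9.94, 9.88 and 9.85 under SNS-314. At 18 h E2F5 read 10.79, 10.24, 10.46 and 10.60 under AZD1152 and 10.46, 10.61, 10.68 and 10.48 under SNS-314. All 4 SNS-314 arrays lay above the highest control and 1 AZD1152 array did not. The changes were 0.38 ± 0.11 (1.30-fold higher, adjusted p = 0.0144) and 0.41 ± 0.11 (1.33-fold, adjusted p = 0.0114). At 12 h SNS-314 gave 10.27, 10.49, 10.58 and 10.72, a change of 0.37 ± 0.11 (adjusted p = 0.0393, overlapping by 1 array), and AZD1152 gave 0.05 ± 0.11 (adjusted p = 0.885). At 24 and 48 h E2F5 was not called, with changes of 0.05 to 0.18.

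These E2F5 calls rested in part on arrays that stood apart, since the highest AZD1152 array at 18 h was replicate 1 and the highest SNS-314 array at 12 h was replicate 4. Without those 3 arrays E2F5 changed by 0.29 with AZD1152 at 18 h (adjusted p = 0.081) and by 0.30 with SNS-314 at 12 h (adjusted p = 0.145). The 12 h call was also lost without control replicate 2, 3 or 4 or SNS-314 replicate 3 or 4 alone (adjusted p from 0.0824 to 0.194). The AZD1152 call at 18 h was lost without control replicate 3 (0.0516) or AZD1152 replicate 1 (0.099). The SNS-314 call at 18 h held without any 1 array, with an adjusted p of at most 0.0499. Within chips E2F5 changed by 0.15 and 0.59 with AZD1152 at 18 h and by 0.52 and 0.26 with SNS-314.

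E2F8, the atypical E2F, was above background on 7 of 42 arrays and never on 3 of a group, so it was not tested. These 7 were control replicate 1, AZD1152 replicates 1 and 3 and SNS-314 replicate 1 at 6 h, SNS-314 replicates 3 and 4 at 12 h, and AZD1152 replicate 1 at 18 h. Its log2 level was 8.64, 8.24, 8.10 and 8.27 in the controls, 7.33, 7.13, 7.06 and 7.37 with AZD1152 at 48 h and 6.93, 7.06, 7.19 and 6.74 with SNS-314 at 48 h. The 48 h arrays lay below all controls, but none of them was above background, so their levels are upper bounds. Of the arrays above background from 12 h on, 2 of 3 were among those that stood apart.

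TFDP1 encodes DP1, the usual DNA-binding partner of the E2Fs, and was read by 2 probes that were above background on all 42 arrays. On the brighter probe the controls read 13.64, 13.68, 13.68 and 13.70. At 24 h the levels were 13.14, 13.38, 12.84 and 12.96 under AZD1152 and 13.32, 13.53, 13.03 and 12.78 under SNS-314. At 48 h they were 12.56, 12.88, 12.54 and 12.49 and 12.77, 13.03, 12.71 and 12.51. At both times TFDP1 was below the lowest control on every array. TFDP1 fell by 0.60 ± 0.13 (adjusted p = 9.7e-04) and 0.51 ± 0.13 (adjusted p = 0.00425) at 24 h. At 48 h it was 2.08-fold lower with AZD1152 (-1.06 ± 0.13, adjusted p = 1.4e-08) and 1.90-fold lower with SNS-314 (-0.92 ± 0.13, adjusted p = 2.4e-07).

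The 2 TFDP1 probes gave the same direction at 48 h and differed in size and onset. On the other probe, with p-values adjusted over all probes that passed the filter, the change at 48 h was -0.65 ± 0.10 with AZD1152 and -0.67 ± 0.10 with SNS-314 (adjusted p = 3.6e-06 and 1.7e-06). At 24 h the change on this probe was -0.37 ± 0.10 (adjusted p = 0.0124) and -0.24 ± 0.10 (adjusted p = 0.121, not called). At 18 h the brighter TFDP1 probe was called lower with AZD1152 (-0.38 ± 0.13, adjusted p = 0.0385) and just missed with SNS-314 (-0.39 ± 0.13, adjusted p = 0.0523), while the other gave 0.05 ± 0.10 and -0.16 ± 0.10. The mean of both probes gave -0.17 at 18 h with AZD1152 (adjusted p = 0.214). The 18 h call was also lost with chip as a fixed block (-0.24, adjusted p = 0.0557) and without any 1 control or AZD1152 replicate 1, 3 or 4 (adjusted p from 0.0524 to 0.102).

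Among the pocket proteins RB1, which encodes the retinoblastoma protein, was called by limma in 0 of the 23 comparisons made, with 1 at an unadjusted p under 0.05, that of AZD1152 at 48 h with 0 h. RB1 read 10.25, 10.20, 10.18 and 10.33 in the controls, 9.85, 10.05, 9.79 and 9.88 with AZD1152 at 48 h and from 9.88 to 10.12 with SNS-314 at 48 h. Each 48 h array lay below the lowest control, and the differences were -0.35 ± 0.15 (adjusted p = 0.0503, 95% interval -0.64 to -0.05) and -0.24 ± 0.15 (adjusted p = 0.182, interval -0.53 to 0.06). At 12 h RB1 read 10.32, 10.54, 10.50 and 10.28 under AZD1152 and 10.17, 9.91, 10.61 and 10.65 under SNS-314, where the arrays of 1 group spread more than the groups differed.

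RBL1 encodes p107, the pocket protein of cycling cells, and was read by 1 probe above background on 26 arrays. A second probe, for another transcript, was above background on 0 of 42. The controls read 9.38, 8.85, 8.67 and 9.04, of which 3 were above background. At 24 h RBL1 read 8.54, 8.19, 8.47 and 8.32 under AZD1152 and 8.56, 8.46, 8.21 and 8.24 under SNS-314, all below the lowest control, with 3 and 1 arrays above background. RBL1 fell by 0.61 ± 0.15 with each inhibitor at 24 h (adjusted p = 0.00367 and 0.00291). At 48 h it read 7.87, 7.49, 7.55 and 7.81 and 7.78, 7.94, 7.54 and 7.79, and no array of either group was above background. The measured means went from 8.98 to 7.68 with AZD1152 (-1.30 ± 0.15, adjusted p = 3.0e-09) and to 7.76 with SNS-314 (-1.22 ± 0.15, adjusted p = 1.2e-08). Against the background limit the fall was 1.57-fold with AZD1152 and 1.61-fold with SNS-314. The control mean takes in a control that was not above background, so neither value is a firm lower bound.

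At 18 h RBL1 was called with AZD1152 at -0.46 ± 0.15 (adjusted p = 0.0305) and not with SNS-314 at -0.36 ± 0.15 (adjusted p = 0.136). The AZD1152 arrays of RBL1 read 8.92, 8.58, 8.66 and 7.93, of which 2 were above background, and the SNS-314 arrays 8.75, 8.68, 8.73 and 8.32. Replicate 4 of AZD1152 was far below the other 3, and without it the change was -0.27 (adjusted p = 0.216). The call was also lost without control replicate 1 (adjusted p = 0.154) or replicate 4 (0.0701).

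RBL2 encodes p130, the pocket protein of resting cells, which joins E2F4 and the MuvB core in the DREAM repressor complex, and it was the 1 measured member called higher than at 0 h after 48 h. RBL2 read 10.11, 9.80, 9.97 and 9.93 in the controls. At 48 h it read 10.35, 10.33, 10.27 and 10.16 under AZD1152 and 10.32, 10.31, 10.16 and 10.46 under SNS-314. All 8 arrays were above the highest control, with changes of 0.32 ± 0.13 (1.25-fold, adjusted p = 0.0353) and 0.36 ± 0.13 (1.28-fold, adjusted p = 0.0193). Within each of the chips that held controls the change was 0.39 with AZD1152 and 0.36 with SNS-314. Between 6 and 24 h RBL2 was not called, with changes of -0.08 to 0.14.

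The RBL2 calls lay close to the threshold. With AZD1152 the call was lost without control replicate 2, 3 or 4 or AZD1152 replicate 1, 2 or 3 (adjusted p from 0.0549 to 0.109), and with all probes kept it was at adjusted p = 0.0814. With SNS-314 the RBL2 call was lost without control replicate 2 (0.0683) or SNS-314 replicate 4 (0.0672).

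**Figure D2:**
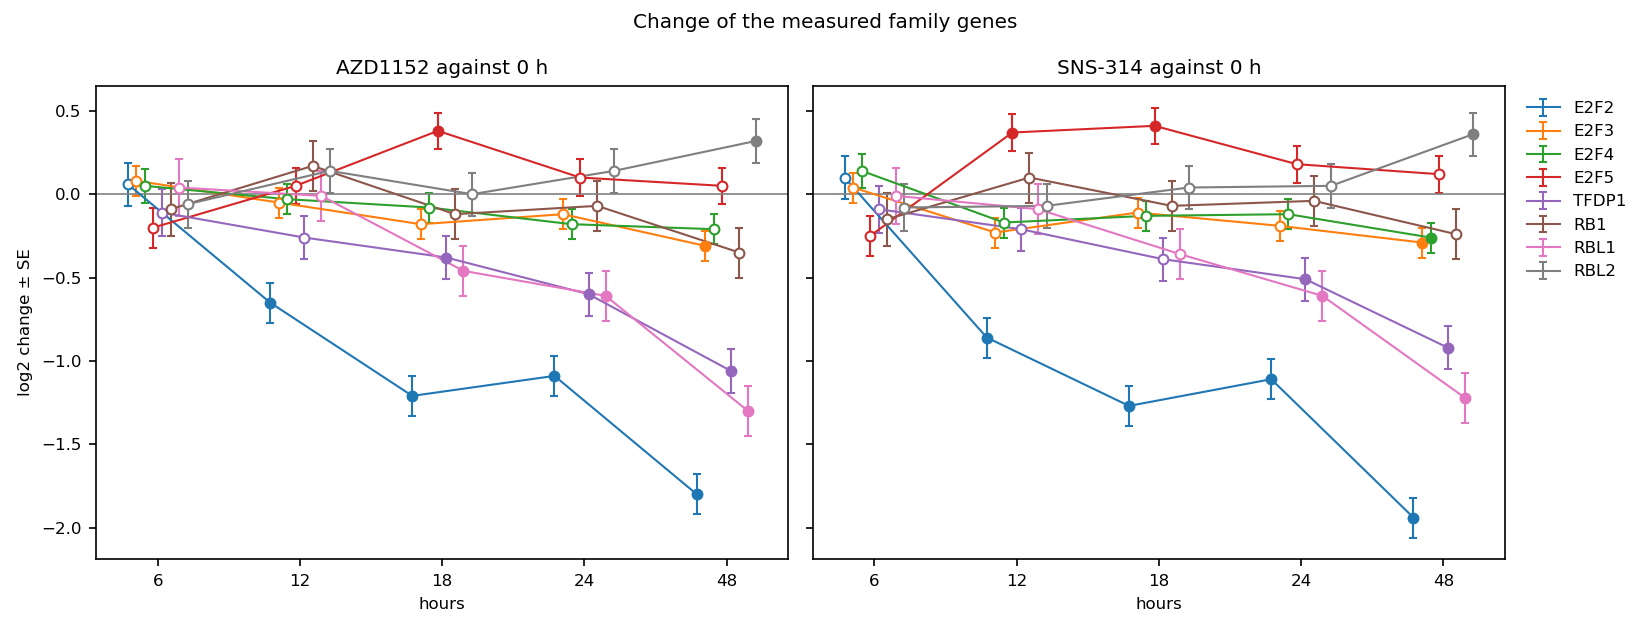
Log2 change against 0 h (vertical axis, ± SE) of the 8 measured genes by hour, in the left panel for AZD1152 and in the right panel for SNS-314, with filled points where limma called the gene. E2F2 is called from 12 h, TFDP1 and RBL1 are called at 24 and 48 h in both panels, RBL1 at 48 h is the difference of measured means below background, and RBL2 is called higher at 48 h.

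Steps between successive times do not use the control levels, but their SE and p-values use a spread pooled over all groups, controls included. From 6 to 12 h E2F2 fell by 0.71 ± 0.13 with AZD1152 (adjusted p = 2.5e-04), where 1.96% of all genes were lower and 1.17% higher. With SNS-314 E2F2 fell by 0.96 ± 0.13 (adjusted p = 1.1e-06) and E2F5 rose by 0.62 ± 0.12 (adjusted p = 6.0e-04), where 3.39% were lower and 1.86% higher. E2F5 did not overlap between those SNS-314 groups. E2F4 was at -0.31 ± 0.10 in this SNS-314 step (adjusted p = 0.0555), and with the replicate block, whose numbers paired these arrays, at -0.32 ± 0.09 (adjusted p = 0.0239). From 12 to 18 h with AZD1152 E2F2 fell by 0.56 ± 0.12 (adjusted p = 0.00184), RBL1 fell by 0.45 ± 0.15 (0.041) and E2F5 rose by 0.33 ± 0.11 (0.0405), where 6.41% of all genes were lower and 7.2% higher. Where the fit held the arrays of those groups alone, none of these 3 calls held, with E2F2 at adjusted p = 0.0691. The calls of RBL1 and E2F5 were also lost when single arrays were left out. For RBL1 these were any AZD1152 array at 12 h and replicate 4 at 18 h (adjusted p from 0.0647 to 0.243), and for E2F5 replicates 3 and 4 at 12 h and replicates 1 and 4 at 18 h (0.0825 to 0.228).

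From 12 to 18 h with SNS-314 limma called 0 members, where 0.583% of all genes were lower and 0.673% higher, and E2F2, at -0.41 ± 0.12 with no overlap (adjusted p = 0.0587), was the 1 member with an unadjusted p under 0.05. The replicate numbers paired these arrays, and each number was also a separate chip. With the number as a block this step of E2F2 was called (-0.41 ± 0.11, adjusted p = 0.0322). From 18 to 24 h limma called 0 members in either series, with 1 in each at an unadjusted p under 0.05, E2F5 at -0.28 ± 0.11 and -0.24 ± 0.11. The shares of all genes in that step were 1.11% lower and 0.919% higher with AZD1152 and 0.83% and 0.269% with SNS-314. From 24 to 48 h the same 3 genes were lower with each inhibitor, where 13.6% of all genes were lower and 13.9% higher with AZD1152, and 13% and 13.2% with SNS-314. E2F2 fell by 0.71 ± 0.12 and 0.83 ± 0.12, and TFDP1 fell by 0.46 ± 0.13 and 0.41 ± 0.13. RBL1 was above background on no array at 48 h, and at 24 h on 3 of 4 AZD1152 arrays and 1 of 4 SNS-314 arrays. The measured RBL1 means differed by -0.70 ± 0.15 under AZD1152 (adjusted p = 5.3e-04). Under SNS-314 the difference was -0.61 ± 0.15 (adjusted p = 0.00234). Against the background limit the RBL1 fall was 1.03-fold for AZD1152 and 1.05-fold for SNS-314. The 24 h means take in arrays not above background, so neither of these folds is a firm lower bound, and the limits themselves were not tested. The TFDP1 step was lost without AZD1152 replicate 2 at 24 h (adjusted p = 0.0546) and, with SNS-314, without replicate 1 or 2 at 24 h or replicate 4 at 48 h (0.0619 to 0.122).

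The inhibitors were compared with each other at each time, at unlike doses of 0.5 and 0.05 µM. In these 5 comparisons limma called 0 of the 8 members, with 2 at an unadjusted p under 0.05, both at 12 h. Over all genes 0% were called at 6, 12, 24 and 48 h and 0.0336% at 18 h, with 280, 575, 297, 270 and 1055 genes at an unadjusted p under 0.05 in that order. E2F5 differed by -0.32 ± 0.11 at 12 h (AZD1152 lower, 95% interval -0.55 to -0.10, unadjusted p = 0.00594, adjusted p = 0.749) with overlapping arrays. E2F3 differed by 0.18 ± 0.09 at 12 h (interval 0.00 to 0.36, unadjusted p = 0.0452, adjusted p = 0.749). At 48 h the intervals ran from -0.09 to 0.38 for E2F2, from -0.40 to 0.13 for TFDP1 and from -0.29 to 0.22 for RBL2, and differences inside those intervals were not detectable with these arrays. The 12 h rise of E2F5 with SNS-314 is thus not shown to differ from the AZD1152 value.

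**Figure D3:**
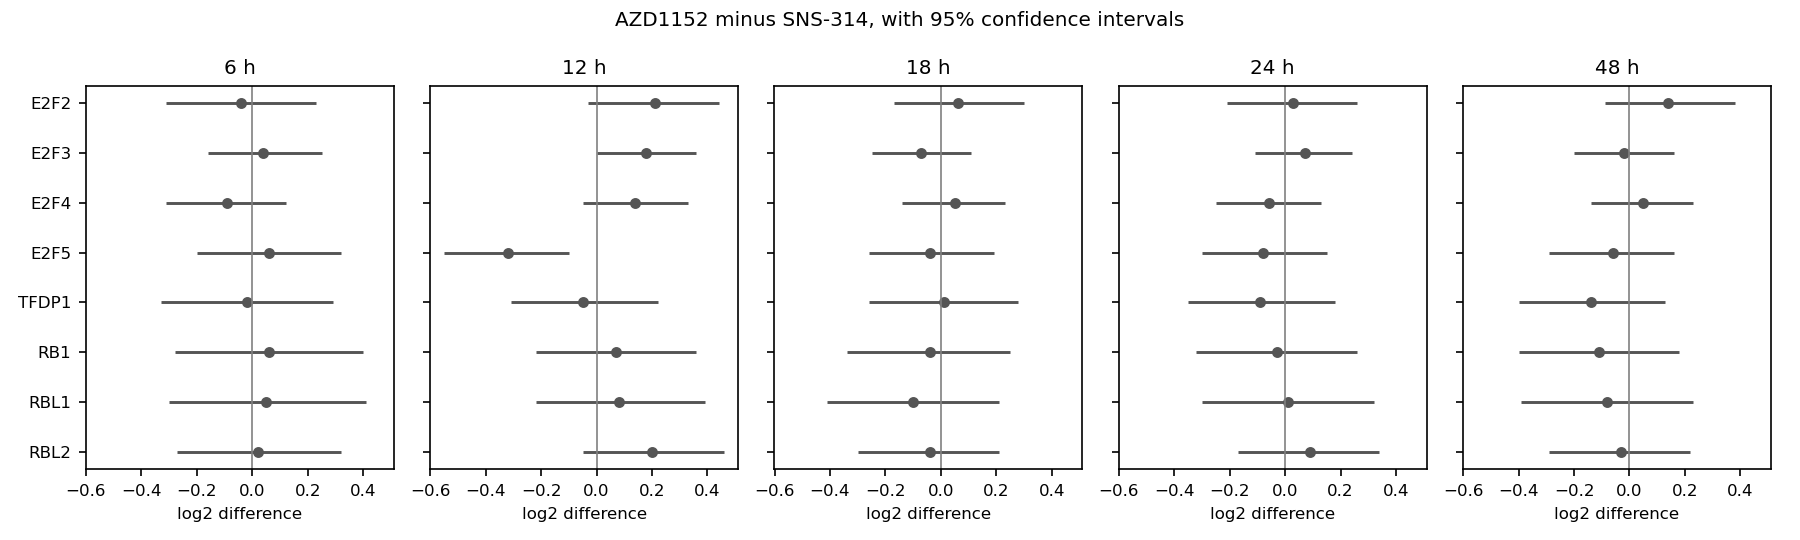
Log2 difference of AZD1152 minus SNS-314 (horizontal axis) for each of the 8 measured genes, in 1 panel per time, with points for the fitted difference and bars for its 95% confidence interval. All intervals include 0 except those of E2F5 and, at its lower end of 0.00, E2F3 at 12 h.

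In the order of its 11 group means, E2F2 was highest at 6 h and in the controls, which overlapped each other, and lowest at 48 h. The 12, 24 and 18 h groups of E2F2 formed a chain of overlapping neighbours between them, from 10.68 ± 0.17 down to 10.06 ± 0.14. In the order of RBL1 the neighbours SNS-314 at 12 h (8.89 ± 0.11) and at 18 h (8.62 ± 0.20) did not overlap, but the AZD1152 arrays at 18 h reached into the first and the controls into the second. Its SNS-314 arrays at 24 and 48 h did not overlap either, and the 48 h levels are upper bounds. Neighbours overlapped throughout the orders of E2F3, E2F4, E2F5, TFDP1, RB1 and RBL2.

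Over the same 11 group means, which share the time course, TFDP1 and RBL1 had a Pearson r of 0.98, E2F2 and TFDP1 0.91, and E2F2 and RBL1 0.89. All correlations of RBL1 take in 48 h means below background. Those of TFDP1 use its brighter probe, and the other probe differed in onset. RBL2 ran against TFDP1 with r = -0.90 and against RBL1 with r = -0.87, and E2F5 had r = -0.23 with TFDP1 and -0.22 with RBL1. Among all other measured genes the group means most like those of E2F2 were UNG (r = 0.995), CBX2 (0.990) and CHAF1A (0.989). UNG encodes uracil-DNA glycosylase, a repair enzyme, CBX2 a Polycomb subunit, and CHAF1A a subunit of the chromatin assembly factor that acts behind the replication fork. Most like TFDP1 were GEMIN4 (0.988), H2AC20 (0.987) and MCM5 (0.986), the last a subunit of the replicative helicase. Most like RBL1 were RTTN (0.994), CDC7 (0.990), the kinase that fires replication origins, and SUV39H1 (0.989), a histone methyltransferase. Most like RBL2 were GOLGA5 (0.963), HBP1 (0.959), a transcriptional repressor, and EXOC1 (0.956).

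For the other members the nearest genes were CNN3 (0.963), RCE1 (0.955) and PALS2 (0.952) for E2F3. They were S100A4 (0.982), EMC8 (0.970) and ADORA1 (0.968) for E2F4 and RNF4BP (0.932), VPS13D (0.931) and GLI3 (0.910) for E2F5. For RB1 they were RPS6KA5 (0.946), P2RY1 (0.942) and HAT1 (0.932). These are the highest correlations among all measured genes over 11 points and carry no p.

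The remaining E2F and DP genes and the regulators around them are given as counts from lists set by function. The lists were chosen with earlier results of these data known, so the counts are descriptive. They are to be read beside the shares of all genes above. Of 4 other family genes 3 were measured, and all 3 were lower at 48 h with both inhibitors, with medians of -0.34 and -0.41. The count was 2 with both inhibitors when genes had to be above background on all arrays. With AZD1152 it was also 2 with 75th percentile scaling, no filter or chip as a block, and without control replicate 1 or 4 or any 1 of the AZD1152 arrays. E2F7, the second atypical repressor, stood at -0.67 ± 0.11 and -0.74 ± 0.11 at 24 h and at -0.69 ± 0.11 and -0.73 ± 0.11 at 48 h. TFDP2, the alternative DP partner, was at -0.34 ± 0.11 (adjusted p = 0.00993) and -0.41 ± 0.11 (0.00196) at 48 h, and it was above background on 3 and 2 of the 4 arrays and on 2 of 4 controls. E2F6, a repressor that works without pocket proteins, was at -0.25 ± 0.10 (adjusted p = 0.0451) and -0.32 ± 0.10 (0.00932).

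Of the G1 cyclins, their kinases and the kinase inhibitors, which act on the pocket proteins, 9 of 15 were measured, and 5 were lower and 1 higher at 48 h with each inhibitor. CDK2, the kinase of the G1 to S transition, was at -1.46 ± 0.11 with AZD1152 and -1.54 ± 0.11 with SNS-314. Its cyclin CCNE1 was already lower at 12 h, at -0.55 ± 0.10 (adjusted p = 5.0e-04) and -0.44 ± 0.10 (0.00599), and stood at -1.03 ± 0.10 and -0.91 ± 0.10 at 48 h. CDKN1A, which encodes the inhibitor p21, was the 1 gene of the list that rose, by 0.89 ± 0.09 and 0.93 ± 0.09 at 48 h and by 0.63 ± 0.09 and 0.62 ± 0.09 at 24 h. CDKN2D, which encodes the CDK4 and CDK6 inhibitor p19, moved the other way, at -0.84 ± 0.09 with each. CDKN2A, the p16 gene, was not measured.

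Of the MuvB core and its DREAM and MYB or FOXM1 partners 5 of 8 were measured, and 4 were lower at 48 h with each inhibitor and 3 at 24 h. LIN9 and LIN54, core subunits, were at -0.95 ± 0.12 and -1.16 ± 0.12 and at -0.73 ± 0.11 and -0.68 ± 0.11 at 48 h. RBBP4, a histone-binding subunit, was at -0.59 ± 0.10 and -0.49 ± 0.10. FOXM1, which drives mitotic genes with MuvB, was not called up to 24 h (-0.23 ± 0.13 with each) and stood at -1.16 ± 0.13 and -1.04 ± 0.13 at 48 h.

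Of the co-repressors that pocket proteins recruit 8 of 10 were measured, with 3 lower and 1 higher at 48 h with AZD1152 and 5 lower and 1 higher with SNS-314. SUV39H1 was at -0.70 ± 0.10 with each at 24 h and at -1.25 ± 0.10 and -1.35 ± 0.10 at 48 h. RBBP7, a histone chaperone, was at -0.46 ± 0.10 and -0.50 ± 0.10. The deacetylase genes differed less, with HDAC1 at -0.31 ± 0.11 (adjusted p = 0.02) and -0.41 ± 0.11 (0.00212), and HDAC2 at -0.24 ± 0.11 (0.0643, not called) and -0.36 ± 0.11 (0.00479).

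The E2F target list held 36 genes, nearly all of DNA replication and nucleotide supply, of which 33 were measured. At 6 h limma called 0 of them with either inhibitor, with 1 at an unadjusted p under 0.05 with AZD1152 and 0 with SNS-314. At 12 h 8 were lower with AZD1152 and 12 with SNS-314, with medians of -0.23 and -0.28, the same time at which E2F2 was first called. The count at 12 h with AZD1152 was 3 to 5 without control replicate 2, 3 or 4 or AZD1152 replicate 2, 3 or 4, and that with SNS-314 was 7 without replicate 3 and 5 without replicate 4. With 75th percentile scaling or no filter the AZD1152 count was 3, and with only the 2 groups in the fit the SNS-314 count was 4. Without the 3 arrays that stood apart the counts were 12 and 7. At 18 h 26 of 33 were lower with each, at 24 h 30, and at 48 h all 33, with a median of -1.36 for each inhibitor. No target was called higher at any of these times.

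GINS2, a subunit of the replicative helicase, stood at -1.84 ± 0.11 with AZD1152 and -2.03 ± 0.11 with SNS-314 at 48 h. UHRF1, which maintains DNA methylation at replication forks, stood at -1.81 ± 0.09 and -1.98 ± 0.09, and RRM2, the regulated subunit of ribonucleotide reductase, at -1.99 ± 0.21 and -1.69 ± 0.21. CDC45, a helicase cofactor, was lower from 12 h on, at -0.56 ± 0.11 and -0.51 ± 0.11, and stood at -1.69 ± 0.11 and -1.94 ± 0.11 at 48 h. Between 18 and 24 h limma called 3 targets lower with AZD1152 and 0 with SNS-314, with 14 and 11 at an unadjusted p under 0.05 and median steps of -0.19 and -0.16. This AZD1152 count was 7 with the replicate block, whose numbers paired these arrays, and 0 with only the 2 groups in the fit. It was also 7 with chip as a block, and 1 with no filter or without the 3 arrays that stood apart. Without single AZD1152 arrays it was 1, 7 and 8 (replicates 1, 2 and 3 at 18 h) and 0 and 1 (replicates 3 and 4 at 24 h). The SNS-314 count was 3 with chip as a block, and 1 with 75th percentile scaling or without replicate 1 or 4 at 18 h. Between 24 and 48 h 30 were called lower with each inhibitor, with median steps of -0.57 and -0.68.

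**Figure D4:**
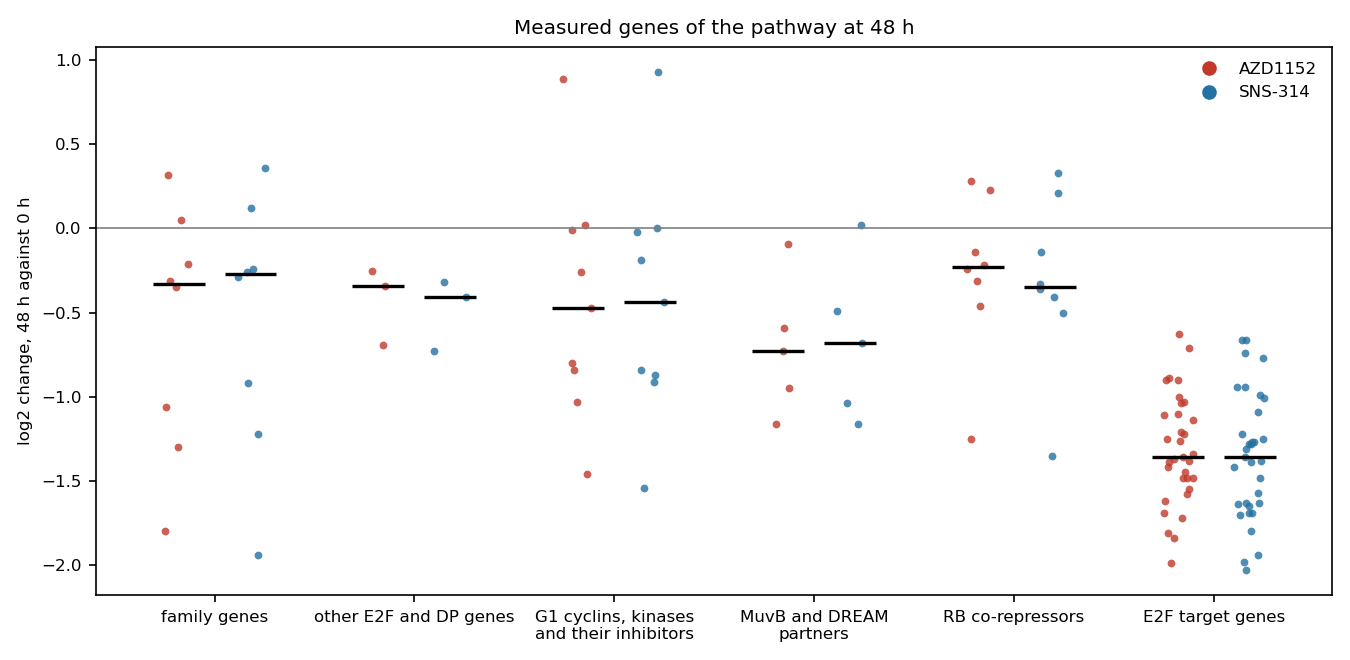
Log2 change at 48 h against 0 h (vertical axis) of each measured gene, by list (horizontal axis), in red for AZD1152 and blue for SNS-314, with black bars at the list medians. The E2F target genes all lie below 0, between -0.63 and -2.03, while the family genes run from -1.94 to 0.36 and CDKN1A stands alone near 0.9 among the G1 regulators.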

How the data were processed

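RNA of 1205Lu cells was read on 42 single-colour Illumina HT-12 arrays. Per the file headers, the deposited non-normalized table holds the intensity of 47312 probes per array. The authors also deposited normalized log2 values of the same arrays, used as an alternative; their making is not given in the sources used here. Of the header lines of the intensity table, which disagree, the second was used, since it matched the deposited normalized columns on 42 of 42 arrays. Background correction was normexp with an offset of 50, followed by quantile normalization and log2 (limma 3.58.1, R 4.3.3). No detection p-values were given, so the planned filter was replaced by a threshold per array, the 95th percentile of background estimated from the mode and lower flank of the signal. A probe above it on at least 3 arrays of 1 group was kept (13489 probes). Probes annotated to several genes (8) or to none (17194) were left out, and the brightest kept probe stood for a gene. For a dim group the background limit is the lowest signal above background.

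One linear model of 11 group means gave 23 comparisons, 10 with 0 h, 5 between inhibitors and 8 between successive times. The members and lists were chosen with earlier results of these data known. Named genes were the members, up to 4 measured genes per other list by size of change at 48 h, and the 3 genes most correlated with each member. Replicate numbers paired the arrays (every residual r over 0.1) in 8 comparisons, none with 0 h. From 6 to 24 h each replicate number lay on its own chip, so pairing by number and by chip cannot be told apart there. Controls 1 and 2 lay on chip 4 and controls 3 and 4 on chip 2, so the control numbers do not follow the chips in this way. The fit was tested on simulated data. The alternatives are named in the closing section, and leaving out 3 arrays together was added after seeing the data.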

Additional observations from a re-analysis of the deposited data

Results flagged for a closer look

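Within the groups of 4 arrays each measured member was checked for an array far from the other 3, and 3 of 72 groups had one, where chance flags about 1 in 20. E2F2 was low on SNS-314 replicate 3 at 18 h, at 9.85 against 10.12 to 10.15 on the others. E2F4 was high on AZD1152 replicate 1 at 24 h, at 10.98 against 10.78 to 10.81, and RB1 was high on AZD1152 replicate 2 at 24 h, at 10.38 against 10.09 to 10.11. Neither E2F4 nor RB1 was called at 24 h, and E2F2 at 18 h stood at -1.20 without that array.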

How the results depend on the processing

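Of 38 called changes of members, 27 kept their call in every fit that left out 1 array, and 11 lost it in at least 1. With the deposited values, without background correction, with an intensity trend, with the replicate block and with chip as a random block all 38 were kept, and with a filter on all arrays all 30 that could be read. The others kept 37 (mean over probes), 36 (chip as a fixed block), 35 (3 arrays that stood apart left out), 34 (75th percentile scaling), 32 (only the groups compared) and 31 (no filter). The replicate block also added 4 calls in comparisons whose numbers did not pair the arrays, E2F4 (-0.21, adjusted p = 0.0358) and RB1 (-0.35, 0.0452) with AZD1152 at 48 h, TFDP1 with SNS-314 at 18 h (-0.39, 0.00412) and RBL2 with SNS-314 between 24 and 48 h (0.31, 0.0357).

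The count of members called with SNS-314 between 12 and 18 h was 1 in place of 0 with the replicate block, with chip as a fixed or random block, or without the 3 arrays. With SNS-314 at 12 h against 0 h it was 1 in place of 2 with 75th percentile scaling, no filter, only the groups compared, or without the 3 arrays. With AZD1152 at 18 h against 0 h it was 2 in place of 4 with no filter or only the groups compared, and between 12 and 18 h 1 in place of 3 with 75th percentile scaling or no filter and 0 with only the groups compared. Without 1 array the counts ran from 1 to 3 (SNS-314 12 h against 0 h), 2 to 4 (AZD1152 18 h against 0 h), 1 to 3 (AZD1152 18 h against 12 h), 0 to 1 (AZD1152 24 h against 18 h and SNS-314 18 h against 12 h) and 2 to 4 (SNS-314 12 h against 6 h). Within chips, where no test was run, a change counted as the same if it lay within the gene's pooled SD of the main value. That held for 12 of 12 changes in chip 1, 24 of 38 in chip 2, 0 of 3 in chip 3 and 28 of 38 in chip 4. The 1 change that was reversed was that of E2F5 with AZD1152 between 12 and 18 h, within chip 2, at -0.10. Over all genes, 9 of 23 counts moved by more than 1.5 times with only the groups compared and 9 with no filter. With only the groups compared they fell from 1214 to 49 (AZD1152 12 to 18 h), 112 to 7 (SNS-314 12 to 18 h), 181 to 0 (AZD1152 18 to 24 h), 468 to 129 (SNS-314 6 to 12 h), 98 to 31 (SNS-314 18 to 24 h), 1583 to 548 (AZD1152 18 h) and 498 to 240 (SNS-314 12 h). The cause of these moves was not tested. Signal near background limits E2F1, E2F8 and RBL1.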
